A study of Homo sapiens with 4 samples.

Results

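Weakly open core promoters are promoters at which ATAC-seq finds a peak with few reads. Here they were taken as the peaks of the first deposited table that are annotated within 1 kb of a transcription start site and have a mean log2 level under 6, which is 64 normalised reads. The rule gave 583 of 20556 peaks, assigned to 570 genes, and 5.45% of the 10701 core promoter peaks. The members were thus chosen by a measured value, their level in the first table, and that low level is not a result. All 583 gene identifiers matched a current RefSeq symbol.

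ATAC-seq reads chromatin accessibility from the cuts of a transposase, which inserts sequencing adapters where DNA is not wrapped in nucleosomes. A core promoter is the stretch around a start site where RNA polymerase and its general factors assemble. At broadly expressed genes it usually lies in a CpG island that stays free of nucleosomes, and it gives one of the strongest signals of the genome. Promoters of tissue-restricted genes more often lack a CpG island, and many genes carry alternative promoters that are used in few cell types. SETD8, now named KMT5A, monomethylates histone H4 at lysine 20, and KMT5B and KMT5C add further methyl groups to its product.

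The experiment used Kasumi-1, a cultured acute myeloid leukaemia line with the t(8;21) translocation. Both groups were the same line: 2 libraries labelled sgNT, with genotype WT, and 2 libraries labelled SETD8 knockout, made with CRISPR/Cas9. The labels leave unsaid whether libraries of a group came from separate cultures or guides, and whether the knockout was a pool of cells or 1 clone. The first table names no library, and the second compares the knockout and sgNT libraries numbered 2, so it has 1 library per group and no replicate check. Its 13577 peaks hold 2091322 reads of the knockout and 5345251 of the control library. At the knocked-out gene the KMT5A core promoter had a log2 fold change of -0.82 in the authors' deposited first table and of -1.45 in the authors' deposited second table. A core promoter peak was present at 5 of 7 myeloblast marker genes and absent at CD33 and MPO. It was present at 1 of 3 B cell, 2 of 4 T and NK cell, 1 of 4 epithelial, 2 of 3 fibroblast, 0 of 4 erythroid and 0 of 2 hepatocyte marker genes. None of the marker genes had its strongest core promoter peak among the 583.

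A few promoters are printed as examples of this class. For the lowest and the highest members by the second pair of libraries, and for KMT5B, the 250 bases before the gene start in RefSeq (GRCh38.p14) are given 5′ to 3′ where the peak overlaps that window. Capitals mark matches, on either strand, to 12 searched motifs, 6 of which occur here. The GC box GGGCGG is bound by SP and KLF factors. CCAAT is bound by NFY. The AP-1 letters are TGANTCA. The ETS letters are CCGGAAG. Those of GATA factors are AGATAA. The TATA box is TATAAA. The first 3 had the lowest second-table fold changes among members whose peak reaches the RefSeq window.
ZNF124, chr1:247172021-247172270, minus strand: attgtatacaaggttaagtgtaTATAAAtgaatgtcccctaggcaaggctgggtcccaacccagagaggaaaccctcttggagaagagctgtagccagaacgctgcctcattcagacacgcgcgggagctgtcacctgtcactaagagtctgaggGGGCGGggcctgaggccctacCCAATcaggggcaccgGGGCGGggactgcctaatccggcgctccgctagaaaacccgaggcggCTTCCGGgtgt
BTN3A2, chr6:26364948-26365197, plus strand: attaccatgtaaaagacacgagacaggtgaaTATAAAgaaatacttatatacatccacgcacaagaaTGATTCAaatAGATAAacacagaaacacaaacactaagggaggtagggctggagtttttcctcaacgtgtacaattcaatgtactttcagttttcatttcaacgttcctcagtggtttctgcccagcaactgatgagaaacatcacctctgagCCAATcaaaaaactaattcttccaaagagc
ARHGAP11B-DT, chr15:30625779-30626028, minus strand: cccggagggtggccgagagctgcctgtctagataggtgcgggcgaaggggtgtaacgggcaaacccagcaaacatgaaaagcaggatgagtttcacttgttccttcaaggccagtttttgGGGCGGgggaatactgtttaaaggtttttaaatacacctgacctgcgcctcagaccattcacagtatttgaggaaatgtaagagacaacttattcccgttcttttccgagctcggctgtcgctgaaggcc
The next 3 had the highest.
FAM171A1, chr10:15371290-15371539, minus strand: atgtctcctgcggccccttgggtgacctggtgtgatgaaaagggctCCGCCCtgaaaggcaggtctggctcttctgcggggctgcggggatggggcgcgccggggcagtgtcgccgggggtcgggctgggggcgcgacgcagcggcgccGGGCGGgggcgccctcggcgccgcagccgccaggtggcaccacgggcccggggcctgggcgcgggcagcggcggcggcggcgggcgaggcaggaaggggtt
FUCA2, chr6:143511721-143511970, minus strand: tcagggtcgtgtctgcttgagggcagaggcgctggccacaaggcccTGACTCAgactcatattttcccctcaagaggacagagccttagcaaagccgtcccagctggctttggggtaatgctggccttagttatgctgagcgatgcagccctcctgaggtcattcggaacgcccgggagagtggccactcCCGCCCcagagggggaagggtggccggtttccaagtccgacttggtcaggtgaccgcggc
ZNF583, chr19:56403764-56404013, plus strand: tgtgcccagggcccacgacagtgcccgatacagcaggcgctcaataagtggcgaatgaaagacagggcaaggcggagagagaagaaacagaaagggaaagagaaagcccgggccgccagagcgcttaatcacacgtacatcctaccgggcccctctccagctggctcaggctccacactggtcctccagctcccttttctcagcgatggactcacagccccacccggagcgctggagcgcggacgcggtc
The last is that of KMT5B, chosen after its values were seen because its enzyme acts on the product of SETD8.
KMT5B, chr11:68213649-68213898, minus strand: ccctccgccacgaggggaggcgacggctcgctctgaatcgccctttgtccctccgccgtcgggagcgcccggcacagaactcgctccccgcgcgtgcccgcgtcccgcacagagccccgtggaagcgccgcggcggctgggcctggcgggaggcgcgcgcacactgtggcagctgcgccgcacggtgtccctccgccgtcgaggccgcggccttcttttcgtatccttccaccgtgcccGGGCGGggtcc

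GC content set some of these sequences far apart. The BTN3A2 sequence held 37.6% GC with 1 CCAAT, 1 AP-1, 1 GATA and 1 TATA match, and no GC box. Those of FAM171A1 and KMT5B held 78.4% and 75.6% GC with 2 and 1 GC boxes as their only matches, and that of ZNF583 held none of the motifs. ZNF124, a zinc finger gene, had 2 GC boxes, 1 CCAAT, 1 ETS and 1 TATA match. The peak covered only 52 of the 250 printed bases at BTN3A2, 126 at ZNF124, 73 at FUCA2 and 69 at ZNF583. The TATA, AP-1 and GATA matches of BTN3A2 lay outside its peak, as did the AP-1 match of FUCA2. Outside the ZNF124 peak lay both GC boxes and its CCAAT and ETS matches. A match describes letters only, and binding was not measured.

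The peak of a weakly open core promoter often did not reach the gene start that RefSeq gives. Of the 467 members whose gene has a RefSeq promoter entry, 180 (38.5%) overlapped its window, which runs from 250 bases before to 50 bases after the start. Of the other core promoters 6327 of 8249 (76.7%) did. Where the gene also had a stronger core promoter peak, 12 of 142 members (8.45%) overlapped the window, against 168 of 325 (51.7%) where it had none. By the transcripts used in the deposited annotation, 359 members (61.6%) lay over a start site, 116 upstream and 108 downstream of one, at a median distance of 369 bp. Among the other core promoters 91.1% lay over one. The members were also narrow, with a median width of 408 bp against 764 bp for the other core promoters. Weak peaks outside promoters were similar, at 387 bp.

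The RefSeq promoters of the members' genes were poorer in GC and in CpG than those of the other core promoters' genes. The median GC content was 61.7% (95% order-statistic interval 60.3 to 63.3) over 457 genes of members and 65.3% (65 to 65.7) over 7509 genes of other core promoters. It was 58.3% in all 27305 RefSeq promoters. The observed-to-expected CpG ratio, which is high in CpG islands, had medians of 0.74 (0.70 to 0.77), 0.85 and 0.58. It was under 0.6 in 35.7%, 15.7% and 51.0%. Genes with both a weak and a stronger core promoter peak are in both sets. The same comparison over the 180 members and 6326 others whose peak overlaps the window was chosen after seeing the data, and gave GC medians of 60.3% (57.7 to 63.3) and 66.0%.

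Of the 12 motifs, 4 had exact binomial 95% intervals that did not overlap between the members and the others in either choice of promoters. The GC box GGGCGG occurred in 55.1% of the members' genes (50.5 to 59.8) and in 71.2% of the others' (70.2 to 72.3), and in 44.6% of all RefSeq promoters. Over the peaks that overlap the window it was in 51.1% and 75.5%. The E-box CACGTG of MYC and USF stood at 6.78% (4.66 to 9.49) and 10.6% (9.91 to 11.3), and at 7.43% in all RefSeq promoters. CCAAT stood at 31.9% (27.7 to 36.4) and 37.7% (36.6 to 38.8), and at 35.7% in all. These 3 were less frequent in the members than in the others. The RUNX letters TGTGGT were more frequent than in the others, at 13.8% (10.8 to 17.3) and 9.22% (8.57 to 9.89), with 13.1% in all. Against all RefSeq promoters, the shares of the members' genes were close for RUNX and the E-box and higher for the GC box. For CCAAT the members' interval included the share of all.

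For 4 further motifs the choice of promoters decided whether the intervals overlapped. ETS, at 14.4% (11.3 to 18.0) of the members' genes and 19.9% (19.0 to 20.9) of the others', and AP-1, at 7.66% (5.39 to 10.5) and 4.39% (3.94 to 4.88), were apart over all genes. Over the peaks that overlap the window they were not, at 18.9% and 22.1%, and at 7.78% and 3.94%. The C/EBP letters TTGCNNAA, at 9.85% and 6.89%, and TATAAA, at 8.32% and 5.59%, overlapped over all genes. Over the peaks that overlap the window they were apart, at 12.2% (7.82 to 17.9) and 6.29% (5.71 to 6.92), and at 9.44% (5.60 to 14.7) and 4.98% (4.46 to 5.54). In all RefSeq promoters ETS stood at 10.67%, AP-1 at 7.76%, C/EBP at 10.56% and TATAAA at 11.95%. Against these, the members' shares were higher for ETS, close for AP-1, on either side for C/EBP and lower for TATAAA. The intervals overlapped in both choices for GATA (6.78% and 4.51% of genes), the CRE letters TGACGTCA (2.19% and 3.41%), YY1 (AAGATGGC, 3.28% and 5.39%) and NRF1 (1.09% and 2.74%). GC content differed between these sets, as given above, and its part in the motif shares was not tested.

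Most members were promoters of protein-coding genes. Protein-coding genes accounted for 483 members (82.8%), long noncoding RNA genes for 69 (11.8%), transcribed pseudogenes for 14 and microRNA genes for 12. Pseudogenes and microRNA genes were thus 2.40% and 2.06% of the members. Among the other core promoters the 4 shares were 88.2%, 9.36%, 1.28% and 0.84%. The share of a list's core promoter peaks that were weak is a description, since level defined the members. Among lists with at least 3 members it was highest for metallothionein and glutathione enzymes (4 of 16), cytokines, chemokines and their receptors (8 of 38), neurotransmission and synapse genes (6 of 31) and ion channels (6 of 36), all above the 5.45% of all core promoters. It was 12 of 118 for microRNA genes, 3 of 21 for interferon response genes, 14 of 175 for solute carriers and 62 of 868 for long noncoding and antisense RNAs.

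Some lists had few members or none. No promoter peak was weak among the 64 of nuclear-encoded oxidative phosphorylation, the 12 of the LSC17 leukaemia stem cell score or the 30 of germline and cancer-testis genes. Histone genes had 1 of 52, cell cycle and DNA replication genes 3 of 111, cytosolic ribosomal proteins 2 of 56, mitochondrial ribosome and translation genes 2 of 59 and zinc finger genes 13 of 357. Against the 5.45% of all core promoters, these counts were not tested. Lists of the other blood lineages were small: 2 of 10 erythroid and megakaryocyte, 2 of 12 B cell, 1 of 10 T and NK cell and 1 of 11 granulocyte and monocyte peaks were weak. Stem and progenitor regulators and homeobox regulators each had 2 of 25.

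**Figure D1:**
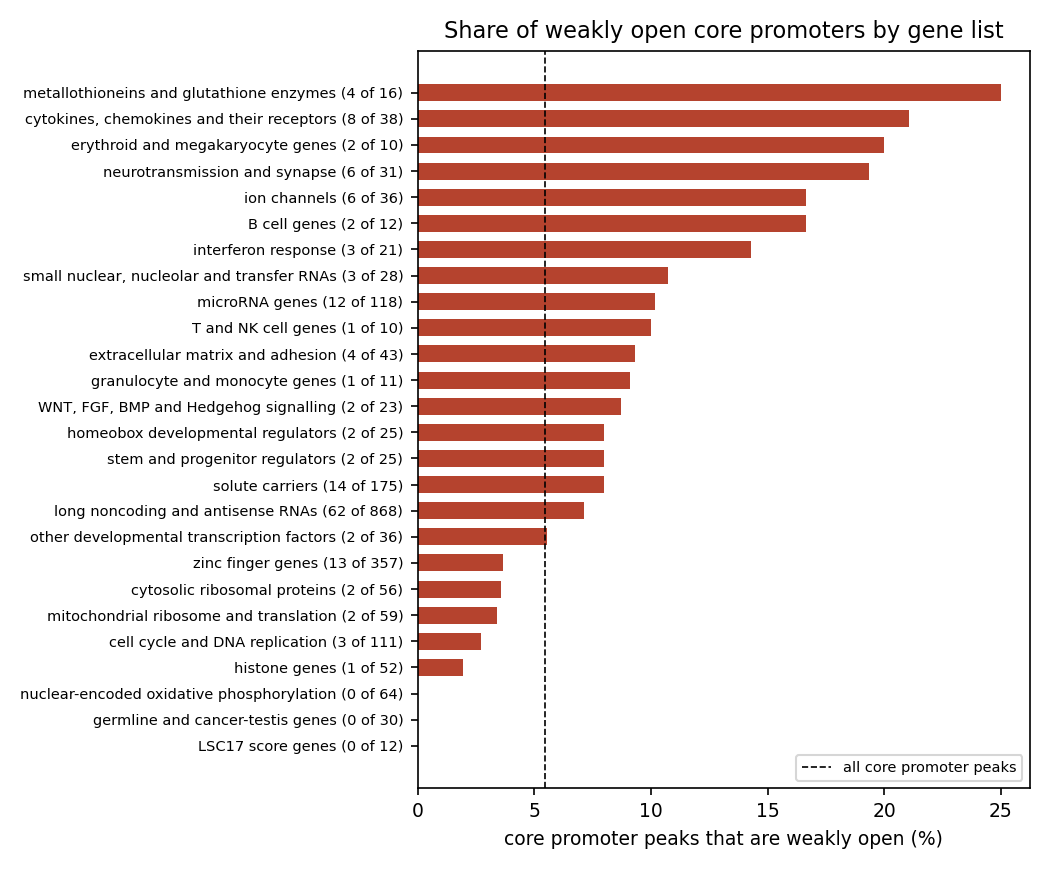
Bars give the percentage of core promoter peaks that were weakly open (x axis) in each of 26 gene lists with at least 10 core promoter peaks, with the counts beside each name. The dashed line is the 5.45% of all core promoter peaks, and metallothionein and glutathione enzymes, with 4 of 16, are at the top.

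In the first table the fold changes of the weak core promoters lay nearer to 0 than those of promoters at large. Their median log2 fold change was -0.47 (95% order-statistic interval over peaks -0.54 to -0.40, n = 583), against -0.94 for the other core promoters and -0.87 for all peaks. These fold changes come from the same libraries as the level that chose the members, so they are described and not tested. Of the members, 107 (18.4%) were lower by at least 1 on the log2 scale, against 38.9% of all peaks, and 4 (0.686%) were higher by at least 1, against 0.511%. After centring on the median of all peaks, 93 members (16.0%) stood higher and 7 (1.20%) lower by at least 1, against 5.52% and 1.98% of all peaks. For weak peaks outside promoters the share higher after centring was 23.5%. In bulk libraries fewer cells with an open promoter and a lower accessibility per cell cannot be told apart. Values above 0, as deposited, occurred in 143 members (24.5%), against 7.45% of all peaks and 1.40% of the other core promoters. The spread was also wider, with an interquartile range of 0.885 against 0.50 for the other core promoters. Weak peaks outside promoters were alike in both, with 28.9% above 0 and an interquartile range of 0.92. On 22 of the 22 chromosomes with at least 10 members the median of the weak core promoters lay above that of the other core promoters, by 0.20 on chromosome 20 to 0.88 on chromosome 11.

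No member passed the authors' test. Adjusted p was under 0.05 for 0 members and for 0% of all peaks, and the smallest adjusted p in the authors' deposited first table was 0.731. An unadjusted p under 0.05 was given to 20 members (3.43%), 19 lower and 1 higher, against 1.60% of all peaks.

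**Figure D2:**
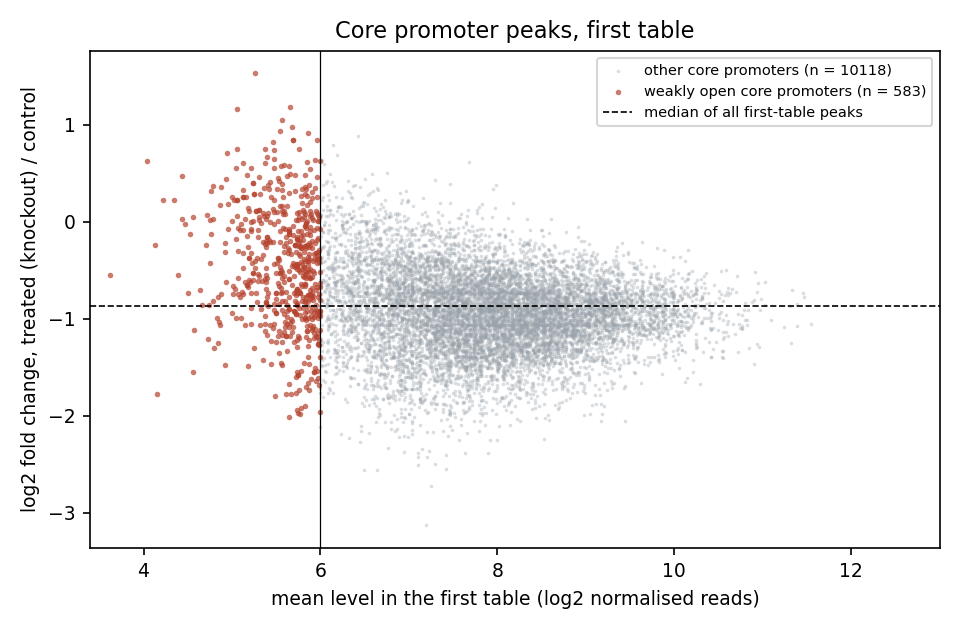
Each point is a core promoter peak of the first table, with the mean level in log2 normalised reads (x axis) and the log2 fold change of treated (knockout) over control (y axis). The 583 weak members in red lie left of the line at level 6 and spread more widely than the 10118 others in grey, and 5 peaks above level 13 are not drawn.

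The fold change followed the level without a step at 6. Core promoters had a median of 0.005 below level 4.5 (10 peaks), -0.43 from 4.5 to 5 (35), -0.22 from 5 to 5.5 (150) and -0.53 from 5.5 to 6 (388). Past the threshold it was -0.71 from 6 to 6.5 (690 peaks) and -0.96 at 8 or more (4696). Just inside the threshold, from 5.9 to 6, the median of 91 members was -0.68, and just outside, from 6 to 6.1, that of 112 core promoters was -0.655. Single peaks at the threshold were FBXO6 (-1.12), DENND2C (-1.39) and RPS27 (-0.97) at level 5.99, and DRC8 (-1.25), MLLT10 (-0.37) and ARHGEF25 (-0.26) at 6, in the authors' deposited first table. Peaks of the same low level outside promoters had a median of -0.38 (3185 peaks, interval -0.41 to -0.36), 0.09 above that of the members. The level, and with it the depth behind each value, thus moved with the fold change, and its part in the result was not tested.

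**Figure D3:**
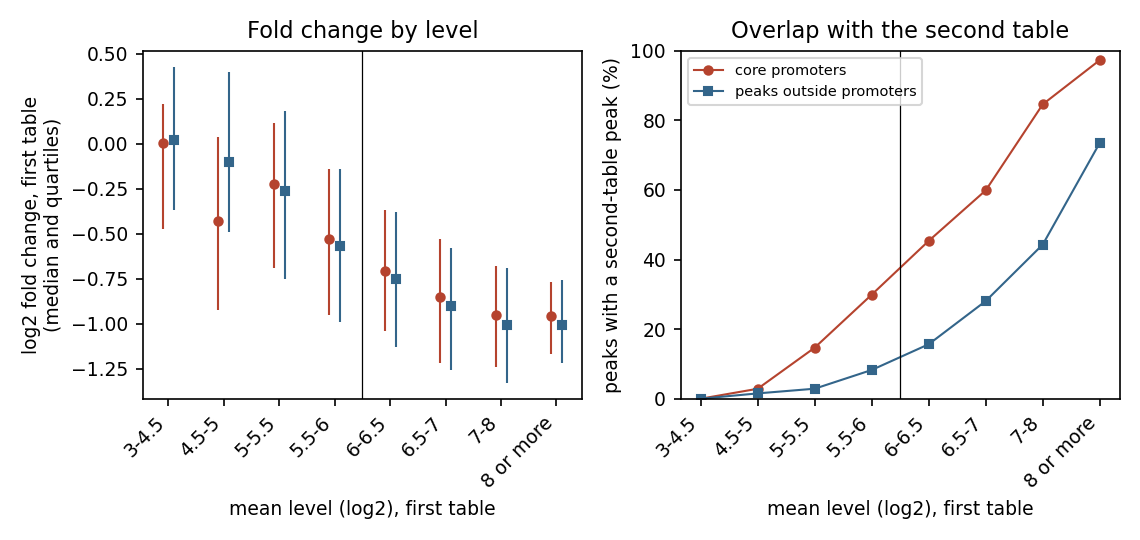
Left, the median log2 fold change of the first table with its quartiles (y axis) by mean level (x axis) for core promoters and for peaks outside promoters. Right, the percentage of the same peaks that overlap a second-table peak, which reached 29.9% of core promoters and 8.26% of other peaks just below the line that marks level 6.

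The second pair of libraries detected few of the members. Of the 583, 139 (23.8%, exact binomial interval 20.4 to 27.5) overlapped a second-table peak by at least 1 bp, against 84.9% of the other core promoters and 5.18% of weak peaks outside promoters. The share was 29.0% for members over a start site and 15.6% for members beside one. Among members whose peak overlapped the RefSeq window it was 59 of 127 (46.5%) with a CpG ratio of 0.6 or more and 12 of 53 (22.6%) below that. The median first-table levels of these classes were 5.76 and 5.64 and their median widths 471 and 409 bp, and the part of level and width in the shares was not tested.

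Where they were detected, most members were weak in the second pair. Whether the libraries numbered 2 also entered the first table is not known, so the second table may not be an independent look at these promoters. For 13 of the 139 members the second-table peak also covered a stronger first-table peak, and for 126 it was the member's own. Of these 126, 97 (77.0%) fell in the range below the table's lower quartile of level, 7.01, and 5 reached the median level. The strongest was FAM114A1, with 223 reads in the knockout and 294 normalised reads in the control library, and the next was NF1, which encodes the RAS inhibitor neurofibromin, with 129 and 352. Both were chosen here after their values were seen. Over the 139 members, knockout reads ran from 6 over a median of 67 to 315, and control normalised reads from 38.6 over 142 to 734. At these depths counting error alone spans a median of 0.43 on either side of a log2 fold change.

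In the second pair the fold changes of the members lay nearer to 0 than those of most peaks, by a smaller margin. Their median log2 fold change was -1.07 (-1.17 to -1.01, n = 139), against -1.23 for all second-table peaks, -1.26 for the other core promoters and -0.95 (-1.03 to -0.86, n = 165) for weak peaks outside promoters. It was -1.06 for the 126 members with a second-table peak of their own. None of the 139 members had a higher level in the knockout than in the control library, which was rare everywhere. Such values occurred in 2 of 8589 other core promoters and 11 of all 11203 first-table peaks with a second-table peak. Of the 139, 85 (61.2%) were lower by at least 1, against 76.1% of all second-table peaks, and 94 (67.6%) lay above the table's median, against 49.8%. The counting interval lay wholly above that median for 39 members and wholly below it for 11. The same was not counted over all second-table peaks, so these counts have no share to be set against. The difference of 0.19 from other core promoters shrank when peaks of like second-table level were compared. Over 5 bins of level from 5.5 to 8 and 122 members with a peak of their own, it was 0.10 on average, an alternative added after seeing the data. In 3 bins, which hold 91 of these members, it was 0.06 to 0.08. From 6.5 to 7, the fullest bin, 47 members had a median of -1.11, 440 other core promoters one of -1.17 and all 1648 peaks one of -1.16. From 6 to 6.5 the 35 members had -1.03 and all peaks -1.04. With 1 library per group these differences have no replicate error to be set against.

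**Figure D4:**
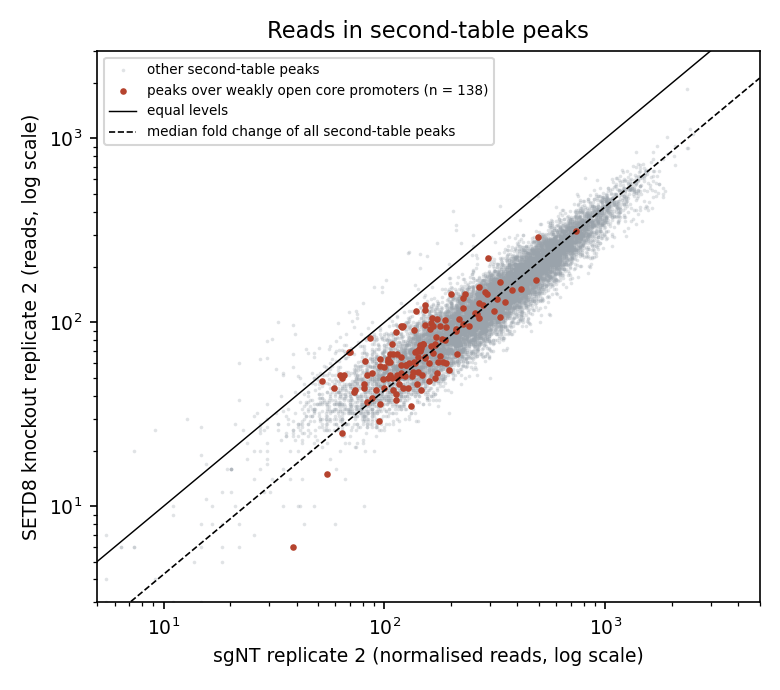
Points are second-table peaks by normalised reads in the sgNT library (x axis) and reads in the knockout library (y axis), both on log scales. The 138 peaks over weak core promoters, in red, lie at the low end of the cloud on or below the line of equal levels, and 102 peaks beyond the axes are not drawn.

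Members with the highest second-table fold changes had nearly equal levels in both libraries on the deposited scale. On that scale all second-table peaks together held 2091322 knockout reads and 4.91e+06 normalised control reads. The part of this scaling in the fold changes was not tested. FAM171A1, a membrane protein gene, had 69 reads in the knockout and 69.1 normalised reads in the control, a fold change of 0.00 in the authors' deposited second table (counting interval -0.49 to 0.49). FUCA2, a secreted fucosidase, had 69 and 69.6, or -0.02 (-0.51 to 0.47) in the authors' deposited second table. ZNF583 had 82 and 85.6, or -0.06, and MPHOSPH9, a centriole protein gene, 48 and 52.3, or -0.12, in the authors' deposited second table. All of these intervals lay above the table's median of -1.23, but the members were picked by the same fold change. In the authors' deposited first table the same 4 peaks stood at -1.05, -0.73, -0.47 and -0.74, with FAM171A1 below that table's median and the other 3 above it.

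KMT5B, the methyltransferase that takes the product of SETD8 further, was also in this group. Its core promoter peak on chromosome 11 at 68213585 to 68214154 had a mean level of 5.94 in the first table. It held 115 reads in the knockout and 139 normalised reads in the control library. The fold change was -0.28 in the authors' deposited second table (counting interval -0.64 to 0.08) and 0.35 in the authors' deposited first table, where the adjusted p was 0.800 (unadjusted p = 0.679). Both lay above the medians of their tables. The long noncoding RNA gene CECR7 (52 and 63.1 reads, -0.28), NOL4L (124 and 153, -0.31) and CEACAM21 (52 and 65.3, -0.33) completed the 8 highest in the authors' deposited second table.

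At the other end stood the 8 lowest members, picked by the same fold change that their counting intervals describe. All but PDE4DIP (-2.80 to -1.04) had an interval wholly below the table's median of -1.23. BTN3A2, a butyrophilin gene of the immunoglobulin superfamily, held 55 knockout and 197 normalised control reads, a fold change of -1.84 in the authors' deposited second table (-2.29 to -1.40). It was among the lowest members of the authors' deposited first table as well, at -1.94 (unadjusted p = 0.0217, adjusted p = 0.731). SLC11A2, an iron transporter gene, had 35 and 132 reads, or -1.91, and PDE4DIP, a centrosome and Golgi anchoring protein gene, 15 and 54.9, or -1.88, in the authors' deposited second table. Those 2 stood at 0.29 and 0.25 in the authors' deposited first table, above 0. ZNF124 had the lowest value, -2.68 (-4.21 to -1.44) in the authors' deposited second table, from 6 and 38.6 reads.

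Values of the remaining 4 were close together. ARHGAP11B-DT, a long noncoding RNA gene, STARD8 and OBI1, a ubiquitin ligase gene of replication origins, stood at -1.76, -1.76 and -1.73 in the authors' deposited second table. The histone gene H4C11 stood at -1.71 there, but its second-table peak also covers a stronger first-table peak. In the authors' deposited first table these 4 peaks had -0.84, -0.86, -1.12 and -0.31.

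By first-table fold change, the lowest members with a level at or above the members' median of 5.66 were of mixed function. In the authors' deposited first table they were CEACAM21 (-1.98), MRPL52 (-1.97), a mitochondrial ribosome protein gene, ARHGAP44 (-1.96), BTN3A2 (-1.94), SYT1 (-1.92), CACNA2D4 (-1.90), PRKCH (-1.78) and TELO2 (-1.77). SYT1 encodes a calcium sensor of vesicle release, CACNA2D4 a calcium channel subunit, PRKCH a protein kinase C and TELO2 a chaperone partner of the large PI3K-like kinases. Of these 8, 4 had a second-table peak: SYT1 with 29 knockout and 94.4 normalised control reads (-1.70), TELO2 with 68 and 167 (-1.30), BTN3A2 and CEACAM21, in the authors' deposited second table. CEACAM21 was thus among these 8 and also among the 8 highest of the second table.

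Among members at or above the same level of 5.66, the 8 highest of the first table had no peak in the second. Most members had none, since 139 of all 583 (23.8%) overlapped a second-table peak. NHSL2 (1.18), LINC02175 (0.98), PACS1 (0.91), TNFSF13 (0.84), NHLRC4 (0.84), PTPRJ (0.84), EBI3 (0.75) and KCNE1 (0.64) were these 8 in the authors' deposited first table. TNFSF13 encodes the cytokine APRIL, PTPRJ a receptor tyrosine phosphatase of blood cells, EBI3 a cytokine subunit and KCNE1 a potassium channel subunit. Their unadjusted p-values ran from 0.141 to 0.451, and the adjusted p was not below 0.731. The other 3 of the 4 members higher by at least 1, named after their values were seen, were LASTR (1.53, p = 0.0387), CNTRL (1.16) and MAN2A2 (1.05) in the authors' deposited first table. LASTR is a long noncoding RNA gene, CNTRL encodes a centriole protein and MAN2A2 a Golgi mannosidase. Of these, MAN2A2 alone had a second-table peak, at -0.71 in the authors' deposited second table.

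Some weak core promoter peaks were assigned to a gene that also had a stronger one. For 153 of the 583 members, of 148 genes, the same gene had a core promoter peak at or above level 6. The median gap was 23248 bp, with a range from 23 to 2082724 bp, and 21 members lay within 2 kb. These pairs rest on the gene assignment alone, and the use of alternative promoters was not measured. In the first table the weak peak had a median of -0.40 and the strongest core promoter peak of its gene one of -0.93, at median levels of 5.66 and 7.68. The weak peak stood higher in 115 pairs and lower in 38, by a median of 0.58 (order-statistic interval 0.36 to 0.80). The level that splits each pair comes from the same libraries as these fold changes, which followed level over all core promoters. The part of level in this difference was not tested. In the second table, leaving out 9 pairs that fall in 1 second-table peak, 21 pairs had a value for both. There the weak peak stood higher in 14 and lower in 7, by a median of 0.32 (-0.04 to 0.71), an interval that includes 0.

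**Figure D5:**
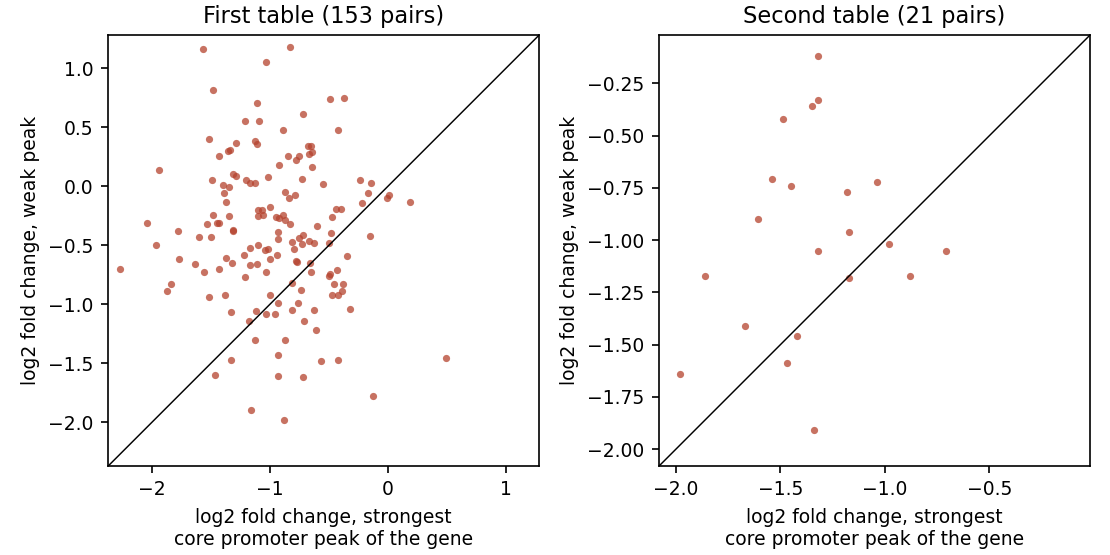
Each point pairs the log2 fold change of a weak core promoter (y axis) with that of the strongest core promoter peak of the same gene (x axis). Points above the diagonal are weak peaks that stood higher, 115 of 153 in the first table on the left and 14 of 21 in the second on the right.

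Single pairs were far apart in either direction. The weak core promoter peak of CNTRL stood at 1.16 and the strongest one of that gene at -1.57 in the authors' deposited first table. Those of ZP3, an egg coat protein gene, stood at 0.82 and -1.48 there. MAN2A2 had 1.05 and -1.03 in the authors' deposited first table and -0.71 and -1.54 in the authors' deposited second table. The opposite order was seen at DNAH14, a dynein gene, with -1.46 and 0.49, and at PRKCH, with -1.78 and -0.13, in the authors' deposited first table. The paired DNAH14 peaks lie only 446 bp apart. These 5 were picked after their values were seen.

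Among the gene lists, 12 had at least 3 members, and the median first-table fold change of 10 of them lay above the -0.87 of all peaks. Against the members' own median of -0.47, 5 of the 12 lay above and 7 below. Cytokines, chemokines and their receptors had a median of -0.53 over 8 members, 2 of them lower by at least 1. In the authors' deposited first table TNFRSF13C, the BAFF receptor gene, had -0.52, TNFSF13 0.84, TNFSF14 -0.54 and TNFSF4, the OX40 ligand gene, -1.74. Neurotransmission and synapse genes had a median of -0.44 over 6 members, 1 lower by at least 1. Besides SYT1 they held STX11 (0.48), a syntaxin, and the serotonin receptor genes HTR7 (-0.24) and HTR3A (-0.44) in the authors' deposited first table. HTR7 held 117 knockout and 153 normalised control reads, a value of -0.39 in the authors' deposited second table. Ion channels had a median of -0.08 over 6 members of 5 genes, 1 lower by at least 1, with CACNA1A at -0.07 and ITPR1 at -0.95 in the authors' deposited first table.

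Solute carriers had a median of -0.30 over 14 members, 2 lower by at least 1, and -1.09 over 5 in the second table. SLC46A3 had 0.54, SLC60A1 -0.76, SLC4A4, a bicarbonate cotransporter, -1.40 and SLC22A16, a carnitine transporter, 0.36 in the authors' deposited first table. Long noncoding and antisense RNAs had a median of -0.59 over 62 members, 13 lower by at least 1, and -1.40 over 10 in the second table, below that table's median. By RefSeq biotype the 69 lncRNA members had -0.53, and -1.16 over 12 in the second table, above its median, so that side depends on how the class is drawn. LINC01612 (-0.92), FAR2-AS1 (-0.31), LOC101929551 (-1.64) and LINC02090 (-1.15) were their strongest members in the authors' deposited first table. Zinc finger genes had a median of -0.58 over 13 members, 1 lower by at least 1, and -1.17 over 5 in the second table. ZNF562 (-0.38), ZNF227 (-0.34), ZNF317 (-0.96) and ZNF346 (-0.58) led by level in the authors' deposited first table. Small nuclear, nucleolar and transfer RNAs had a median of 0.01 over 3 members, which were SNORD118 (0.01), SNORA75 (-0.83) and SNORD56B (0.75) in the authors' deposited first table.

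MicroRNA genes had a median of -0.66 over 12 members, 3 lower by at least 1. None had a second-table peak, against 23.8% of all members that had one. MIR4706 (-1.27), MIR7156 (-1.58), MIR193A (-0.86) and MIR4323 (-0.18) were the strongest in the authors' deposited first table. MIR193A is shown because its microRNA has been described to target KIT in t(8;21) leukaemia. Its peak lay at -846 bp, upstream of the start, at a mean level of 5.74. The mature sequences from RefSeq (GRCh38.p14), with the seed at bases 2 to 8 in capitals, differ in their seeds.
hsa-miR-193a-5p: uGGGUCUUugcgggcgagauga
hsa-miR-193a-3p: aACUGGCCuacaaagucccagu

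Some weak promoters belonged to genes of the cell cycle. PLK1 and AURKB, kinases of mitosis, and RFC3, a replication factor subunit, were the 3 cell cycle members, with a median of -0.94 and 1 lower by at least 1. PLK1 had -1.20 and AURKB -0.42 in the authors' deposited first table, and -1.12 and -1.67 in the authors' deposited second table. PLK1 held 50 knockout and 108 normalised control reads, and AURKB 67 and 212. RFC3 had -0.94 in the authors' deposited first table and no second-table peak.

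The last 3 lists concerned stress, interferon and matrix genes. Metallothionein and glutathione enzymes had a median of -0.86 over GPX7 (-0.22), GSTO2 (-1.07), GSTO1 (-0.64) and GSTM1 (-1.48) in the authors' deposited first table, all enzymes of the glutathione branch. The interferon-induced genes OAS3 (-0.40), MX1 (-0.85) and GBP2 (-0.22) had a median of -0.40, and 0 of 3 were lower by at least 1, in the authors' deposited first table. Matrix and adhesion genes had a median of -1.15 over ITGB3 (-1.55), an integrin of platelets, COL4A5 (-1.80), a basement membrane collagen, ITGAL (-0.75) and ADAMTS19 (-0.66) in the authors' deposited first table. That median lay below the -0.87 of all peaks, with 2 of 4 lower by at least 1.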

How the data were processed

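ATAC-seq libraries were sequenced as paired ends, and groups were read from the sample titles. Some titles end in the number 2, without saying what it counts, and the others carry no number. Per the submitters' processing notes, Bowtie2, ChIPseeker, cutadapt, deepTools, MACS2 2.1.2 and SAMtools were used with hg38. Order, settings, scaling and duplicate handling are not given in the sources used here. Deposited by the authors were log2 levels, log2 fold changes, p-values and adjusted p-values per peak, in 2 tables. The first has numbered columns, identified by order and range, and 2 of its columns, with no named library, were not used. Its direction was read from the name of the table.

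Reads of the second table were recovered from the deposited log2 levels: 331 of the knockout values up to 30 reads were whole within 0.005 (100%), and the 168 such control values were whole multiples of 0.918. Intervals of its fold changes are exact binomial and cover counting error only. Each first-table peak took the second-table peak it overlapped most. RefSeq promoters were matched by gene identifier, for 457 of 570 genes, and hg38 and GRCh38.p14 share chromosome coordinates. Counts of all 4 libraries were not used here, so no test was run, and the authors' adjusted p-values are given. All p-values given are those of the first table, which names no library, so whether replicate spread lies behind them is unknown. Any such spread may be technical.

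Named were the 8 lowest and highest members by each table, 1 per gene (for the first table at or above the median level), up to 4 per list by level, and 3 peaks at each side of the threshold. Printed sequences were limited to peaks over the RefSeq window, a change to the rule. The members and lists were chosen with earlier results of these data known. Overlap, intervals and motif search were tested on simulated data. Python 3.11.15, numpy 2.4.6, pandas 2.3.3, scipy 1.17.1 and matplotlib 3.10.9 were used. Alternatives changed the level threshold, distance, overlap, fold size, centring, chromosomes and peaks per gene.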

Additional observations from a re-analysis of the deposited data

How the results depend on the processing

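Of 71 alternative values of the main results, 51 stayed within the interval or within 1.5 times of the reported one, 18 moved and 2 reversed. Centring each table on the median of its peaks reversed the medians, to 0.40 in the first and 0.16 in the second table, by construction. It left 7 members lower and 93 higher by at least 1 in the first table and 1 lower in the second. A threshold of 5.5 gave 195 members with a first-table median of -0.24, 24 lower and 2 higher by at least 1, and 23 joined peaks with 12 lower. A threshold of 6.5 gave 1273 members with a median of -0.62, 304 lower, and 452 joined peaks with 274 lower. The first-table median and the counts therefore depend on the threshold, whereas the second-table median stayed between -1.11 and -1.01 under the alternatives other than centring. A fold size of 1.5-fold gave 250 lower and 24 higher in the first table. An unadjusted p under 0.05 gave 20 members in place of 0. Among members over an annotated start site 71 were lower by at least 1, and among genes with no stronger core promoter peak 1 was higher, both chosen after seeing the data and with fewer peaks. The excess of 0.19 over other core promoters in the second table lay between 0.15 and 0.24 under 10 alternatives, but was 0.10 when compared within bins of second-table level, an alternative added after seeing the data.

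No paired analysis was possible because the first table names no library and counts of all 4 libraries were not used here. For the same reason no replicate was left out in turn. Depth limits single members: the counting interval of a second-table fold change had a median half-width of 0.43.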
